A study of Mus musculus with 15 samples.

Results

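Transcripts of 10 interferon-inducible GTPase genes were followed in pancreatic islets of NOD females as insulitis developed. The set holds 6 guanylate-binding proteins (Gbp2, Gbp3, Gbp5, Gbp6, Gbp7 and Gbp9) and 4 immunity-related GTPases (Irgm1, Irgm2, Igtp and Iigp1), picked by gene name from the 48709 genes of the deposited count table, and all 10 were found. RNA from the islets of 3 mice was sequenced at each of 5 ages, 4, 6, 8, 10 and 12 weeks. All 15 mice were females of the NOD strain, which develops autoimmune diabetes spontaneously, no treatment is given for any of them, and no strain without autoimmunity was included, so that age and disease stage run together in every group. The islets were freed by collagenase and picked by hand, and any cells still attached to them were sequenced with the endocrine cells.

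Guanylate-binding proteins (GBPs) and immunity-related GTPases (IRGs) are the main GTPases that cells make in response to interferon gamma. GBPs are relatives of dynamin that assemble into coats on vacuoles and bacteria inside the cell and help to set off inflammasomes, the complexes that activate inflammatory caspases. IRGs fall into effectors such as Iigp1, which load onto and break the membranes of such vacuoles, and the regulators Irgm1, Irgm2 and Igtp, which sit on the cell's own membranes and hold the effectors inactive there. Interferon gamma, released chiefly by T cells and natural killer cells, acts through the receptor chains Ifngr1 and Ifngr2 and the kinases Jak1 and Jak2. Its target genes carry GAS motifs, and interferon regulatory factors such as Irf1 bind the ISRE motif.

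The genes lie in clusters of close relatives. Gbp2 (chr3:142620602-142638008, plus strand), Gbp3 (chr3:142560026-142573209, plus strand), Gbp5 (chr3:142493978-142522344, plus strand) and Gbp7 (chr3:142530342-142550149, plus strand) are neighbours on chromosome 3 of the mm10 build. Gbp6 (chr5:105270702-105293698, minus strand) and Gbp9 (chr5:105077630-105139539, minus strand) are neighbours on chromosome 5. Irgm1 (chr11:48861968-48871683, minus strand), Irgm2 (chr11:58199618-58222782, plus strand) and Igtp (chr11:58199556-58207591, plus strand) lie on chromosome 11, and Iigp1 lies apart from these clusters. Gbp6 shares 1726 exonic bases, 29.0% of its own, with Gm43302 on the same strand, and Igtp shares 162 bases, 8.0% of its own, with Irgm2. Reads from such stretches, and from paralogs of near-identical sequence, could have been assigned to either gene, so that the levels of single members are uncertain by an amount that was not tested.

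RefSeq promoter windows of the GRCm38.p6 assembly, 250 bases before to 50 bases after each transcript start, were found for 7 of the members (8 windows, since Gbp3 has 2 starts). Gbp6, Gbp9 and Iigp1 are named only. The windows were searched on both strands for an ISRE written as GAAA, 2 bases of any kind and GAAA, and for a GAS written as TTCNNNGAA. Windows of all 7 members held an ISRE, against 3.44% of 32851 mouse promoters of the same length. Those of Gbp5, Gbp7, Igtp and Irgm2 held a GAS as well, against 8.3% of the promoters for a GAS and 0.454% for both. The stretches that carry the matches are printed 5′ to 3′ along the gene, with the matches in capitals, because these are the motifs through which interferons are known to act. An ISRE on the opposite strand reads TTTC, 2 bases of any kind and TTTC.
Gbp2 promoter, chr3:142620597-142620620, plus strand: cttttagTTTCACTTTCactgtct
Gbp3 promoter, chr3:142559992-142560021, plus strand: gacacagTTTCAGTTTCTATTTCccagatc
Gbp5 promoter, chr3:142496762-142496897, plus strand: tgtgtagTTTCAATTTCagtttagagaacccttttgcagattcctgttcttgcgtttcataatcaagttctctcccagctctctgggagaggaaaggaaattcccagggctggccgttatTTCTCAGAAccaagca
Gbp7 promoter, chr3:142530223-142530299, plus strand: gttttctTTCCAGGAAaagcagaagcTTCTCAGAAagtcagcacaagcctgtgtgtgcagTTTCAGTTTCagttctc
Irgm1 promoter, chr11:48871428-48871457, minus strand: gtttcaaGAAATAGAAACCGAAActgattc
Irgm2 promoter, chr11:58214895-58214929, plus strand: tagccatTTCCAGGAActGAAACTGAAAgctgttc
Igtp promoter, chr11:58199504-58199538, plus strand: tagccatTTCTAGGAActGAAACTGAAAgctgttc
By the GENCODE vM21 annotation all 30 bases of the Irgm1 stretch and 19 of the 24 bases of the Gbp2 stretch lie in an exon of the gene itself, and none of the other stretches touches one. In Gbp3 and in Irgm1 a pair of overlapping ISREs gives the longer run of capitals. The stretches of Irgm2 and Igtp were the same at 34 of 35 bases, with the GAS just before the ISRE. The first base of the match nearest to the start lay at -24 in Irgm1, -34 in Igtp, -39 in Gbp3, -52 in Gbp5, -53 in Gbp7, -59 in Gbp2 and -64 in Irgm2, counted from the transcript start. Gbp5 held a further GAS at -245, outside the printed stretch, and the other window of Gbp3 held neither motif. A match of letters is a description of the sequence and does not show that a factor was bound there.

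Between 25407492 and 41616275 reads per mouse were assigned to genes (median 28004882), and 16554 of the 48709 genes, all 10 members among them, had enough counts to be tested. The 12 endocrine markers were high in every mouse, with summed levels from 152340.0 to 346970.0 CPM (counts relative to the library total scaled by TMM). Leukocyte markers were present in every mouse and rose with age. The summed level of the 8 T-cell markers ran from 1.41 to 28.8 CPM at 4 weeks and from 296 to 408 at 12 weeks, and in 4-week mouse 3 2 of the T-cell markers, Cd247 and Cd8b1, and 3 of the 6 B-cell markers, Cd79b and Pax5 among them, had no count. Mouse 1 of the 8-week group stood apart from the other mice of its age, with 7.04 CPM of T-cell markers against 109.5 and 156. No pair of libraries held the same counts. Replicate numbers are used here only to name the mice, and the labels give no tie between mouse 1 of one age and mouse 1 of another.

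All 10 members were lower at 4 and 6 weeks than at 10 and 12 weeks, and split between mice at 8 weeks. Mice of the early ages differed widely too, with summed levels of the members from 78.7 to 549.5 CPM at 4 weeks and from 77.1 to 477.9 at 6 weeks. For each of the 10, the lowest of the 6 mice aged 10 or 12 weeks was above the highest of the 6 mice aged 4 or 6 weeks. How many of all genes separate in this way is not reported here. Between 12 and 4 weeks alone, 30.3% of all genes tested had every older mouse above every younger one. The levels of the members covered a wide range, from a 13.0-fold span over the 15 mice for Gbp7 to a 109-fold span for Iigp1. In bulk islets fewer cells of a type and less RNA per cell cannot be told apart, which holds for every level given here. The lowest count of any member in any mouse was 54 reads, for Gbp5, so that no value rests on a handful of reads.

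Gbp2 and Gbp5 carry a lipid anchor, and Gbp2 is known as a coat protein of parasite vacuoles. The levels of Gbp2 in mice 1, 2 and 3 of each age were 62.3, 20.3 and 4.27 at 4 weeks, 5.19, 15.7 and 54.5 at 6 weeks, 9.63, 156 and 139 at 8 weeks, 327, 244 and 144 at 10 weeks and 253, 111 and 242 at 12 weeks, in CPM. The highest and lowest mouse differed 76.5-fold, and all mice of 8 weeks or more except mouse 1 at 8 weeks were above the 4-week mice. Gbp5, which is known to promote assembly of the Nlrp3 inflammasome, measured 21.9, 8.29 and 1.95 at 4 weeks, 2.93, 5.58 and 23.3 at 6 weeks, 3.90, 56.2 and 48.7 at 8 weeks, 123, 83.7 and 50.6 at 10 weeks and 85.1, 46.2 and 91.6 at 12 weeks, in CPM. Mouse 1 at 8 weeks was again below mice 1 and 2 at 4 weeks. Gbp3, another member of the chromosome 3 cluster, measured 26.0, 10.2 and 2.68 at 4 weeks, 4.36, 8.79 and 25.7 at 6 weeks, 5.58, 61.1 and 62.6 at 8 weeks, 133, 109.9 and 72.3 at 10 weeks and 115, 46.6 and 94.7 at 12 weeks, in CPM. Its mice at 10 weeks were all above those at 8 weeks, which was not so for Gbp2 and Gbp5. Gbp7, which is recruited to vacuoles of intracellular parasites, measured 56.8, 26.6 and 16.0 at 4 weeks, 16.4, 23.8 and 48.7 at 6 weeks, 20.4, 106 and 99.8 at 8 weeks, 208, 144 and 102 at 10 weeks and 145, 83.7 and 157 at 12 weeks, in CPM. Its lowest mouse at 10 weeks fell just short of its highest at 8 weeks, as for Gbp2 and Gbp5.

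The chromosome 5 GBPs followed the same course. Gbp6 measured 69.8, 22.96 and 4.05 at 4 weeks, 4.60, 16.7 and 49.9 at 6 weeks, 7.30, 142 and 136 at 8 weeks, 301, 223 and 148 at 10 weeks and 247, 97.8 and 216 at 12 weeks, in CPM. Its lowest mouse at 12 weeks was above its highest at 4 weeks, and mouse 1 at 8 weeks was below mice 1 and 2 at 4 weeks. Gbp9 measured 19.9, 10.7 and 6.51 at 4 weeks, 7.01, 9.76 and 21.4 at 6 weeks, 9.27, 42.4 and 45.4 at 8 weeks, 92.1, 80.3 and 49.5 at 10 weeks and 85.8, 51.4 and 85.2 at 12 weeks, in CPM. Gbp9 was the least spread of the GBPs at 12 weeks, where its lowest mouse reached 51.4 CPM and its highest 85.8.

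Among the IRGs, the effector Iigp1 had the widest span over mice. Its levels were 114, 42.7 and 6.69 at 4 weeks, 4.08, 18.3 and 99.2 at 6 weeks, 5.22, 215 and 230.3 at 8 weeks, 446, 365 and 240.4 at 10 weeks and 406, 127 and 324 at 12 weeks, in CPM. The 8-week group thus held 1 mouse below every 4-week mouse and 2 mice above them. The regulator Irgm1, which acts on Golgi, mitochondrial and lysosomal membranes, measured 61.6, 31.7 and 15.9 at 4 weeks, 15.1, 24.8 and 50.4 at 6 weeks, 18.5, 106 and 103 at 8 weeks, 217, 164 and 116 at 10 weeks and 161, 72.9 and 149.7 at 12 weeks, in CPM. Its lowest mouse at 12 weeks was still above its highest at 4 weeks. Irgm2, a Golgi-associated regulator, measured 60.6, 24.0 and 11.9 at 4 weeks, 10.9, 20.8 and 56.7 at 6 weeks, 10.9, 119.9 and 121 at 8 weeks, 244, 177 and 132 at 10 weeks and 189.9, 79.1 and 177 at 12 weeks, in CPM. Igtp, a regulator of the endoplasmic reticulum also called Irgm3, measured 56.8, 24.0 and 8.76 at 4 weeks, 6.54, 18.2 and 48.1 at 6 weeks, 9.63, 121 and 122 at 8 weeks, 280.2, 213 and 135 at 10 weeks and 225, 82.3 and 195 at 12 weeks, in CPM. For both, every mouse at 10 weeks was above every mouse at 8 weeks, and mouse 2 at 12 weeks fell back below both high mice of the 8-week group.

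**Figure D1:**
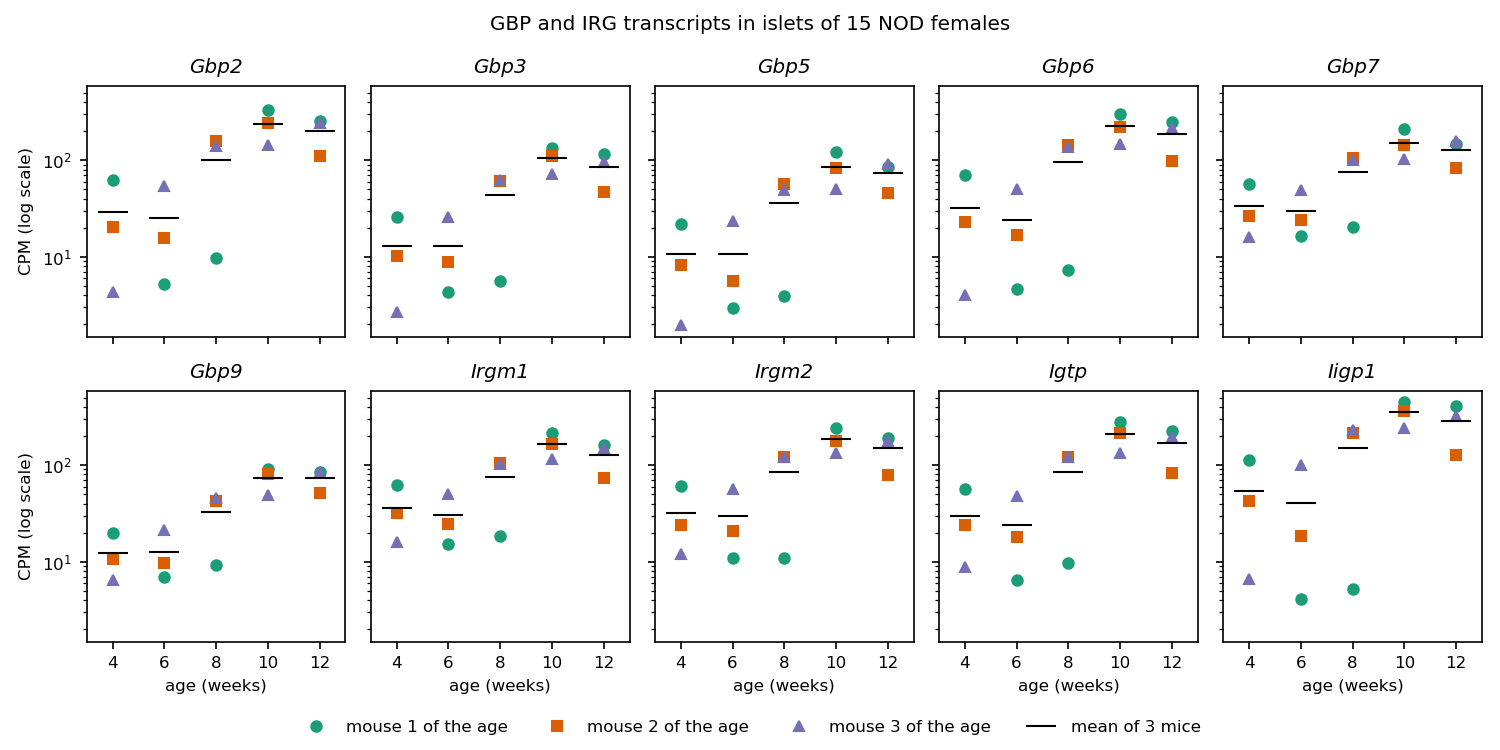
Level of each of the 10 genes (CPM, log axis) in each mouse against age in weeks; points are mice, their shape and colour give the replicate number within an age, and bars are means of 3 mice. In every panel all 6 mice of 10 and 12 weeks lie above all 6 mice of 4 and 6 weeks, and mouse 1 of 8 weeks lies below mouse 1 of 4 weeks. The share of all genes that separate in this way is not reported here.

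To ask how far the family moved over the whole timeline, the 12-week mice were compared with the 4-week mice. With edgeR's quasi-likelihood test, 8 of the 10 members rose at an adjusted p under 0.05, against 26.3% of all genes tested that rose by the same rule. The median log2 fold change was 2.51 over the members, 2.65 over the 6 GBPs and 2.30 over the 4 IRGs, beside -0.048 over all genes, and the fold changes ran from 3.52 for Irgm1 to 6.99 for Gbp2. Among GBPs, Gbp9 had the smallest p, with a log2 fold change of 2.58 (SE 0.59, adjusted p = 0.00324). Gbp2 rose by 2.80 (SE 1.06, adjusted p = 0.0403), Gbp5 by 2.79 (SE 0.98, adjusted p = 0.0290), Gbp3 by 2.72 (SE 0.90, adjusted p = 0.0226) and Gbp7 by 1.96 (SE 0.62, adjusted p = 0.0178). Gbp6 had a value that missed the threshold, 2.53 (SE 1.08, adjusted p = 0.0638). Of the IRGs, Igtp rose by 2.49 (SE 0.91, adjusted p = 0.0352), Irgm2 by 2.21 (SE 0.83, adjusted p = 0.0393) and Irgm1 by 1.81 (SE 0.65, adjusted p = 0.0320). The effector Iigp1, the most spread between mice, missed it at 2.39 (SE 1.25, adjusted p = 0.124). By the study's rule, a fold of at least 1.5 with an unadjusted p under 0.05, 9 of 10 members passed, all but Iigp1, against 20.9% of genes. The 12-week mice were all above the 4-week mice for all 10 members, against 30.3% of genes.

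The calls at 12 against 4 weeks depended on which mice were in the fit. The count of 8 fell to 1, Gbp9, without mouse 2 or mouse 3 of 4 weeks or mouse 3 of 12 weeks, and to 2 without mouse 1 of 12 weeks, while every member kept a positive value in each of these fits. By the fold rule the count of 9 fell to 5 without mouse 2 of 4 weeks and to 4 without mouse 3. How many of all genes were called in these smaller fits is not reported here. The falls can therefore not be read as particular to the members. When the mean log2 level of 22 leukocyte markers was added to the fit, all 10 members had values below 0, from -5.80 for Iigp1 to -1.09 for Gbp9, with edgeR adjusted p from 0.0649 to 0.395. By the fold rule all 10 were then lower, and by adjusted p none was. Over all genes that fit called 1191 by the fold rule, 33.5% of them higher, and 2 by adjusted p. Markers that form the covariate did not move together in it, with medians of -2.20 for T-cell, 4.74 for B-cell and -0.71 for myeloid markers. The mean of the 22 markers rose with age in the same mice. Age and leukocyte content therefore cannot be told apart in this comparison. In 3 of 3 mice at 12 weeks the summed leukocyte markers, 2000.2, 2090.4 and 2380.4 CPM, were above all 4-week mice, at 235, 80.7 and 48.1.

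Step by step, all 10 members had positive values from 6 to 8 and from 8 to 10 weeks. The step from 6 to 8 weeks was the larger for all 10 with every mouse in the fit and also without mouse 1 of 8 weeks, but for only 1 member without mouse 2 and for 3 without mouse 3 of that age, so that the order of these steps rests on single mice. From 4 to 6 weeks the median was -0.19 (members from -0.45 to 0.034), and no member was called by edgeR at an adjusted p under 0.05 (0.00604% of genes rose), by the fold rule (1.15% rose) or at an unadjusted p under 0.05 (8.67% of genes in either direction), nor at an adjusted p under 0.05 by the edgeR exact test or DESeq2. From 6 to 8 weeks the median was 1.76 (from 1.34 to 2.02), beside -0.011 over all genes. In that step edgeR called none of the 16554 genes at an adjusted p under 0.05 (0%), the exact test and DESeq2 called no member, and the members' adjusted p in edgeR ran from 0.250 to 0.432. Gbp7 and Gbp9 passed the fold rule, and no other member had an unadjusted p under 0.05 by edgeR, 2 of 10 members against 8.4% of genes by the fold rule and 18% by the unadjusted p in either direction. No member had its 8-week mice all above its 6-week mice, where 7.62% of genes did. Without mouse 1 of 8 weeks all 10 members passed the fold rule, as they did without mouse 3 of 6 weeks, and without any 1 of the other 4 mice none did. The share of all genes that passed in these fits is not reported here. These counts therefore cannot be set against the 8.4% of the fit with every mouse.

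From 8 to 10 weeks the median of the members was 1.23 (from 1.004 to 1.32), beside -0.00504 over all genes. None passed in the edgeR fit by either rule or at an unadjusted p under 0.05 (37.9% of genes in either direction), with adjusted p from 0.138 to 0.471, nor at an adjusted p under 0.05 in the exact test or DESeq2, while 8.4% of genes rose by adjusted p and 11.1% by fold. The fold rule called Gbp9 without mouse 3 of 8 weeks and without mouse 3 of 10 weeks. For Gbp3, Gbp6, Gbp9 and all 4 IRGs the 10-week mice were all above the 8-week mice, 7 of 10 against 17.2% of genes. From 10 to 12 weeks the median was -0.28 (from -0.37 to 0.00372). No member passed the fold rule (1.61% of genes rose) or an unadjusted p under 0.05 (7.52% in either direction) in edgeR, no gene passed by adjusted p (0%), and the exact test and DESeq2 called no member. Neighbouring steps share the mice of the age between them, and the first step shares the 4-week mice with the whole-timeline comparison, so these values are not independent of each other. Tested over the 5 ages at once, 8 of 10 members changed at an adjusted p under 0.05 in edgeR, against 56% of genes, with Gbp6 (adjusted p = 0.0631) and Iigp1 (adjusted p = 0.149) outside. That count fell to 3 without mouse 2 of 4 or of 6 weeks, to 4 without mouse 1 of 6, mouse 1 or 2 of 10 or mouse 3 of 12 weeks, and to 5 without mouse 3 of 4 or mouse 1 of 12 weeks. The share of all genes called in these smaller fits is not reported here, so these falls cannot be read as particular to the members.

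**Figure D2:**
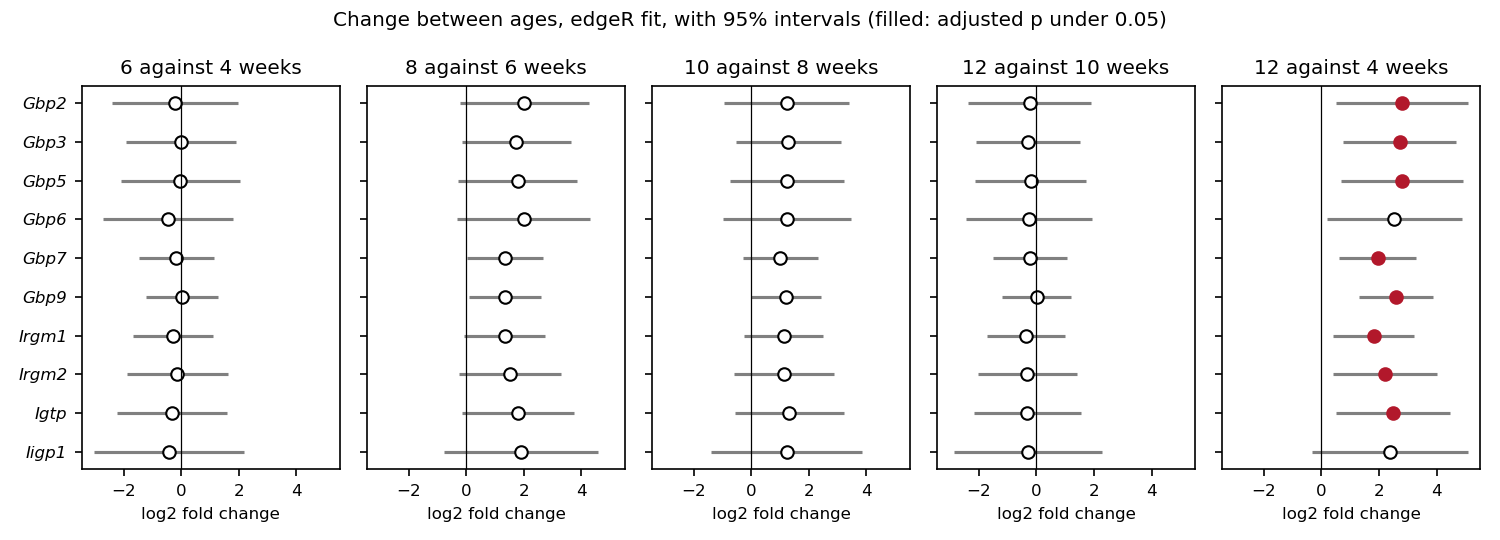
Log2 fold change of each gene (older against younger age) in the 5 comparisons, from the edgeR fit over 15 mice; lines are 95% intervals and filled points have an adjusted p under 0.05. In these 5 comparisons filled points appear only at 12 against 4 weeks, for 8 of the 10 genes, and the intervals of all 10 genes at 6 against 4 and 12 against 10 weeks include 0.

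Per length of transcript (TPM, the abundance scaled to length as deposited), the same 4 genes had the highest means at every age, in the order Iigp1, Igtp, Gbp2 and Irgm2, and Gbp9 and Gbp5 came last. At 4 weeks mean TPM was 34.2 ± 35.4 (SD, n = 3) for Iigp1 and 3.16 ± 3.11 for Gbp5. At 10 weeks, the age with the highest mean for every member but Gbp9, Iigp1 reached 276 ± 88.5, Igtp 254 ± 95.4, Gbp2 233 ± 95.7 and Irgm2 123 ± 41.4 TPM. Gbp9 and Gbp5 stood at 35.1 ± 11.2 and 31.8 ± 14.3. The 4 genes between them, Gbp6, Gbp3, Gbp7 and Irgm1, changed places from age to age and lay between 66.2 and 92.6 TPM at 10 weeks. At each age the ranges of every pair of neighbours in the order overlapped, so that single steps in the order did not exceed the spread between mice. Within single mice, Irgm2 was above the gene next in the order in all 15 mice, and Igtp was above Gbp2 in 3 of 3 mice at 4, 6 and 10 weeks and in 2 of 3 at 8 and 12. Iigp1 was above Igtp in 3 of 3 mice at 10 and 12 weeks, in 2 of 3 at 4 and 8 weeks and in only 1 of 3 at 6 weeks. Gbp2 was above Irgm2 in 2 of 3 mice at 4 and 6 weeks and in 3 of 3 at the later ages. Iigp1 took 22.4% of the summed mean TPM of the 10 genes at 4 weeks and 21.6% at 12 weeks, and Gbp2 took 14.8% and 19.0%.

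**Figure D3:**
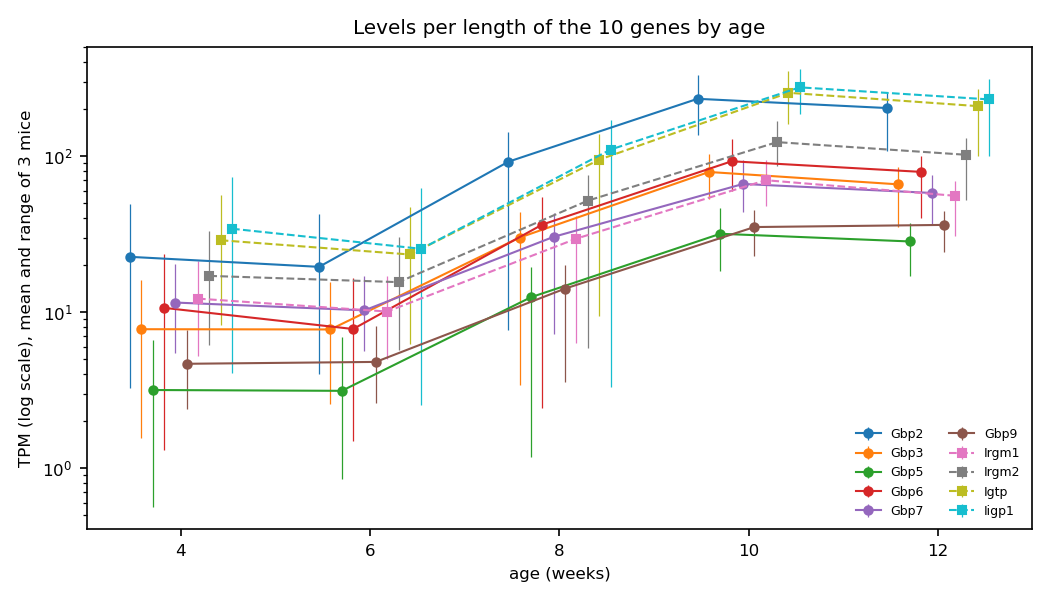
Level per transcript length (TPM, log axis) of the 10 genes at each age in weeks; points are means of 3 mice and vertical lines run from the lowest to the highest mouse, with GBPs as circles on solid lines and IRGs as squares on dashed lines. Iigp1, Igtp and Gbp2 lie on top and Gbp5 and Gbp9 at the bottom at every age, and the lines are longest at 4, 6 and 8 weeks.

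Mice of one age differed in the same way for the whole family. At 4 weeks mouse 1 was the highest and mouse 3 the lowest for all 10 members, where mouse 1 was the highest for 41.9% of all genes and mouse 3 the lowest for 36.3%. At 6 weeks mouse 3 was the highest and mouse 1 the lowest for all 10, against 39.5% and 42.7% of all genes. At 8 weeks mouse 1 was the lowest for all 10, against 36.8% of all genes, with the other 2 mice sharing the top place evenly, 5 members each. At 10 weeks mouse 1 was the highest and mouse 3 the lowest for all 10, against 38.0% and 40.4% of all genes, and at 12 weeks mouse 2 was the lowest for all 10, against 30.7%. The median over members of the fold between the highest and lowest mouse came to 8.09 in the 4-week group, 6.63 in the 6-week group and 11.9 in the 8-week group, and then to 1.95 and 2.34 in the 10-week and 12-week groups. Over the 15 mice the 45 pairs of members had Pearson correlations of log2 CPM from 0.942 (Gbp9 with Iigp1) to 0.998, and from 0.965 to 0.998 once each age's mean was subtracted. The points of each pair share a library, its depth and its cell content.

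At 8 weeks the outlying mouse had fewer leukocyte transcripts too, but not to the same degree in each class. The summed level of the 10 members was 100.3, 1125 and 1107 CPM in mice 1, 2 and 3. Beside them the 8 T-cell markers summed to 7.04, 109.5 and 156, the 6 B-cell markers to 43.6, 49.2 and 119 and the 7 myeloid markers to 106, 416 and 565 CPM, with none of these markers at 0 in these mice. Compared with mouse 1 of 4 weeks, mouse 1 of 8 weeks had all 10 members lower, at 0.0458 to 0.464 times its level, T-cell markers at 7.04 against 28.8 CPM and B-cell markers at 43.6 against 7.97 CPM. Its myeloid markers stood at 106 against 164 CPM and Ptprc at 18.9 against 34.6. T-cell and myeloid markers and Ptprc thus ordered these 2 mice as the members did, and B-cell markers the other way. The part that cell content had in the members' levels was not tested.

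At 12 weeks mouse 2 stood below the other mice in the members but not in the sum of the 22 leukocyte markers. That sum was 2000.2, 2090.4 and 2380.4 CPM in mice 1, 2 and 3. Mouse 2 had the lowest level of all 10 members, with a sum of 799 CPM against 1914 in mouse 1 and 1731 in mouse 3, at 0.313 to 0.599 times the level of mouse 1. In mice 1, 2 and 3 the T-cell markers summed to 296, 296 and 408 CPM, the B-cell markers to 304, 459.8 and 449.7 and the myeloid markers to 1078, 1018 and 1109. T-cell markers were thus near level in mice 1 and 2, and B-cell markers were highest in mouse 2. The myeloid sum was mostly Lyz2, at 804, 817 and 817 CPM. Each of the other 6 myeloid markers was lowest in mouse 2, as the members and 30.7% of all genes were. Among these 6, Itgax measured 80.5, 42.8 and 82.7 CPM and Fcgr1 21.9, 8.66 and 20.7 CPM. Csf1r and Cd14 fell less in mouse 2, at 100.2, 94.8 and 109.9 CPM and at 14.6, 13.3 and 18.0 CPM. Ifng, the ligand, followed the members too, at 5.12, 1.74 and 4.62 CPM in mice 1, 2 and 3. It was lowest in mouse 2. With 1 mouse of this kind no test can be made. Per CPM of leukocyte markers the members stood at 0.382 in this mouse and at 0.957 and 0.727 in the others of its age.

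**Figure D4:**
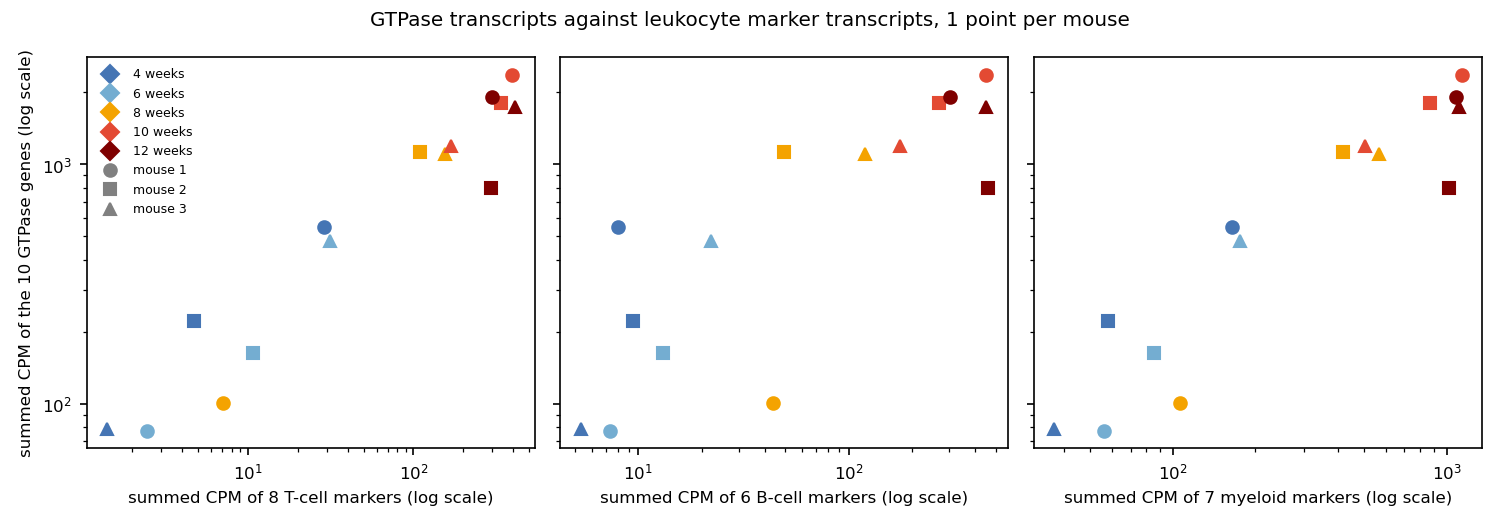
Summed CPM of the 10 GTPase genes (log axis) against summed CPM of T-cell, B-cell and myeloid markers (log axes), 1 point per mouse, with colour for age and shape for the mouse within it. The median sums of the members and of the T-cell markers both climb from 6 to 10 weeks. From 4 to 6 weeks the members' median falls from 221.5 to 162 CPM while that of the T-cell markers rises from 4.70 to 10.7. Mouse 1 of 8 weeks lies below mouse 2 of that age at a similar level of B-cell markers, and mouse 2 of 12 weeks lies below the other 12-week mice.

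The ligand, receptors and signalling genes of interferon gamma were examined next, since GBPs and IRGs are their textbook targets. All 14 genes of this list rose from 4 to 12 weeks at an edgeR adjusted p under 0.05, against 26.3% of all genes tested, with a median log2 fold change of 1.76. Ifng measured 0.861, 0.171 and 0 at 4 weeks, 0, 0.0526 and 0.867 at 6 weeks, 0.182, 3.07 and 2.79 at 8 weeks, 6.62, 4.72 and 2.33 at 10 weeks and 5.12, 1.74 and 4.62 at 12 weeks, in CPM, and was without a count in 2 mice. At 10 and 12 weeks its mice were all above those at 4 and 6 weeks, as for the members, a split whose share over all genes is not reported here. Ifng rose by 3.45 (SE 1.21, adjusted p = 0.0290). The receptor chains Ifngr1 and Ifngr2 rose by 1.58 (SE 0.24, adjusted p = 0.000382) and 1.30 (SE 0.23, adjusted p = 0.000823). Of the kinases, Jak2 rose by 1.42 (SE 0.26, adjusted p = 0.000837) and Jak1 by 0.75 (SE 0.088, adjusted p = 0.000168). Irf1 rose by 1.53 (SE 0.42, adjusted p = 0.00904), and Socs1, the feedback inhibitor of the pathway, by 2.48 (SE 0.64, adjusted p = 0.00616). From 6 to 8 weeks the list had a median of 0.92, and Ifng itself a log2 fold change of 2.78 (SE 1.23, adjusted p = 0.263). Without mouse 2 or 3 of 4 weeks 11 of the 14 genes rose from 4 to 12 weeks, in fits whose share of all genes called is not reported here.

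Other interferon-linked lists moved too, and 26.3% of all genes tested rose from 4 to 12 weeks at an edgeR adjusted p under 0.05. Of 14 tested family relatives, which are further GBPs and IRGs, 11 rose from 4 to 12 weeks, with a median of 3.30 over the list, and Tgtp2, an effector IRG and the most abundant per length, rose by 3.05 (SE 1.21, adjusted p = 0.0486). Irgq, a quasi-GTPase of the IRG group not known to be interferon-inducible, fell by 0.40 on the log2 scale (edgeR adjusted p = 0.00302), but by 0.16 with library totals (adjusted p = 0.123). Of the antiviral interferon-stimulated genes, which respond foremost to type I interferons, 16 of 18 rose, with a median of 1.87. Their example Isg15, a ubiquitin-like modifier, rose by 2.01 (SE 0.55, adjusted p = 0.00838), and Eif2ak2, the most abundant over all 15 mice though not at 10 and 12 weeks, had a value of 0.21 (SE 0.12, adjusted p = 0.171). Of 6 tested genes of type I interferon signalling, 5 rose, with a median of 0.83 and Stat2 at 1.28 (SE 0.32, adjusted p = 0.00549). From 6 to 8 weeks the medians were 1.76 for the 10 members, 2.22 for the relatives, 0.79 for the antiviral genes and 0.26 for type I signalling. Differences between the lists were not tested. With the leukocyte marker mean in the fit none of the genes of these lists rose at an adjusted p under 0.05 in edgeR. At 12 against 4 weeks that fit called only 2 of all genes by adjusted p, 0% of them higher. The absence of calls therefore says nothing particular to these lists. The count of 11 relatives fell to 5 without mouse 2 or 3 of 4 weeks and to 6 without mouse 1 or 3 of 12 weeks. For these fits too the share of all genes called is not reported here.

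Known partners of GBPs and IRGs gave different counts. All 8 inflammasome and caspase genes linked to GBPs rose from 4 to 12 weeks by edgeR adjusted p, against 26.3% of all genes, with a median of 3.13. Among them was Gsdmd, which forms membrane pores once cleaved, at 1.72 (SE 0.33, adjusted p = 0.00114). The 12 autophagy and ubiquitin factors that target GBPs and IRGs to vacuoles had a median of -0.098, close to that of all genes. Of these 12, Atg7 rose by 0.35 (SE 0.091, adjusted p = 0.00635) and Traf6 by 0.18 (SE 0.063, adjusted p = 0.0289), while Gabarapl2 fell by 0.39 (edgeR adjusted p = 0.00212) and Atg16l1 fell by 0.25 (edgeR adjusted p = 0.0228). These small values turn on the scaling: with library totals in place of TMM, which raised the median of all genes by 0.25, 6 of the 12 factors rose, none fell at an edgeR adjusted p under 0.05, and their median was 0.15. The most abundant of them, Gabarap, had a value of -0.15 (SE 0.069, adjusted p = 0.0807). Over the same ages the median was 4.76 for T-cell markers, 7.85 for B-cell markers, 2.35 for myeloid markers and -0.91 for endocrine markers, and Ptprc, the pan-leukocyte marker CD45, rose by 4.46 (SE 0.92, adjusted p = 0.00178). All 8 T-cell, all 6 B-cell and all 7 tested myeloid markers rose at an edgeR adjusted p under 0.05 as well.

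**Figure D5:**
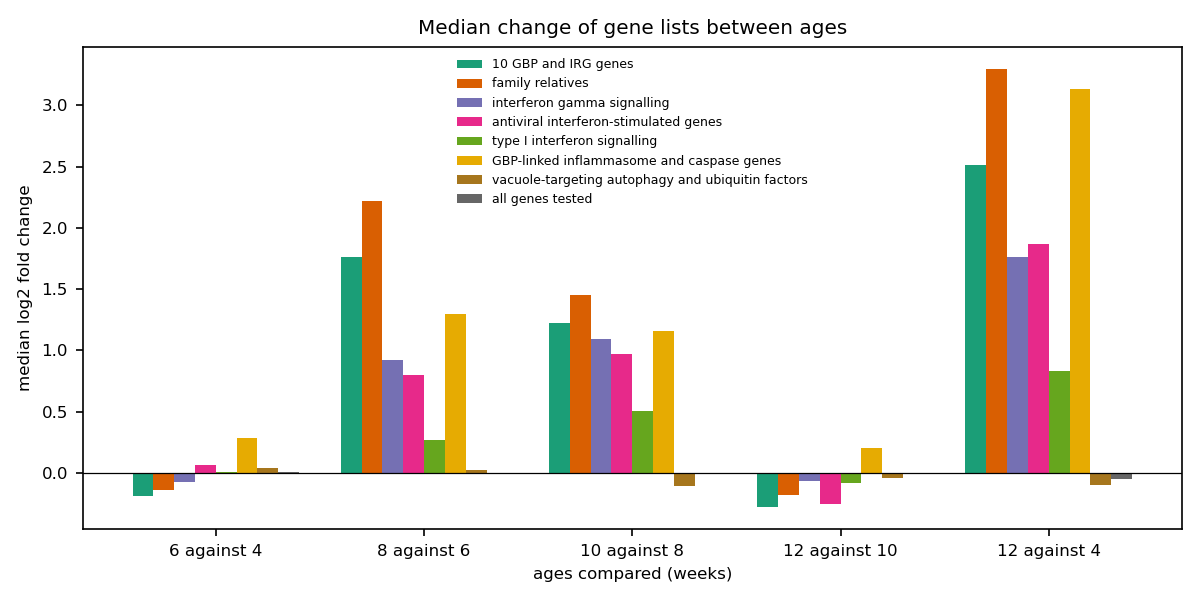
Median log2 fold change (edgeR fit) of the 10 GBP and IRG genes, of 6 lists of related genes and of all genes tested, for each pair of ages; bars are medians over the tested genes of a list. The members and their relatives stand above the interferon lists at 8 against 6 weeks, and the autophagy and ubiquitin factors stay near 0 in all 5 comparisons.

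Genes whose levels over the 15 mice were most like those of the members were ranked by Pearson's r with the mean log2 CPM of the members, among 16544 other genes. The 10 closest were Tgtp2 (r = 0.998), Gbp4 (0.998), Gm12185 (0.995), Ifi47 (0.994), Zbp1 (0.992), Nlrc5 (0.991), Cxcl10 (0.991), Tigit (0.990), Ccl5 (0.990) and Tgtp1 (0.990). Tgtp2, Gbp4, Gm12185, Ifi47 and Tgtp1 are themselves GBPs or IRGs. Zbp1 is a nucleic acid sensor, Nlrc5 drives MHC class I genes, Cxcl10 and Ccl5 are chemokines, and Tigit is a receptor of T and natural killer cells. Ifng ranked 36 (r = 0.984), with the T-cell genes Cd8a at rank 85 (0.977) and Cd3e at rank 155 (0.969). The macrophage gene Csf1r had rank 233 (0.962) and Ptprc rank 321 (0.953). These r values lie close together, and ranking by Spearman's rho replaced most of the 10 closest genes. Irf7, of the type I interferon signalling list, ranked 292 (r = 0.956), the antiviral gene Isg15 561 (0.936) and the endothelial gene Pecam1 3159 (0.746). The levels compared share their libraries, ages and cell content, and the ranking is a description with no test.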

How the data were processed

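RNA of islets was measured by bulk sequencing of polyadenylated RNA in 15 samples, each from 1 NOD female. The authors trimmed, aligned and counted reads with default settings in the CLC Genomics Workbench, and the labels name the mm10 build, a C57BL/6J genome, so that reads of NOD alleles that differ from it may be lost, which was not tested. The deposited counts are whole reads per gene with no normalization, and the deposited TPM values are scaled by the authors to gene length and library. A further 30 per-sample columns (RPKM and CPM) were not used. Gene regions equal those of GENCODE vM21 for 88.43% of identifiers.

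Counts ran from 25407492 to 41616275 per mouse. They were filtered with filterByExpr (16554 of 48709 genes kept), scaled by TMM, and fitted with edgeR 4.0.16 (glmQLFit, 1 mean per age, R 4.3.3). Contrasts were tested with glmQLFTest and adjusted by Benjamini-Hochberg over all genes tested. Calls used an adjusted p under 0.05, or the study's rule, a fold of 1.5 with an unadjusted p under 0.05. TPM values were used for levels between genes, and log2 CPM with a prior count of 2 for likeness. The members, gene lists and tests were chosen with earlier results of these data known. Named genes were the members, the 10 genes most like them, and from each list the most abundant genes per length and the interferon gamma pathway genes. Isg15, Traf6, Atg7, Atg16l1, Gabarapl2, Irgq, Itgax, Fcgr1, Cd14, Lyz2 and the other ranked genes were named after their values were seen. The myeloid marker Itgam was not analysed here, and some genes of the lists are not reported here by name.

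Alternatives were DESeq2 size factors, library totals, no filter, the compared ages alone, the edgeR exact test, DESeq2 1.42.0, the replicate number as a block, the mean of 22 leukocyte markers as a covariate, and each mouse left out. The fit was tested on simulated data. Promoter windows came from RefSeq (GRCm38.p6). Tables and figures were made with Python 3.11.15 and matplotlib 3.10.9.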

Additional observations from a re-analysis of the deposited data

How the results depend on the processing

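The rise from 4 to 12 weeks and the positive values from 6 to 8 and from 8 to 10 weeks kept their direction for all 10 members under 7 alternatives and with each mouse of the compared ages left out, and turned with the leukocyte markers in the fit. With those markers as a covariate the log2 fold changes at 12 against 4 weeks were -3.79 for Gbp2, -2.77 for Gbp3, -3.35 for Gbp5, -4.21 for Gbp6, -1.86 for Gbp7, -1.09 for Gbp9, -2.20 for Irgm1, -2.93 for Irgm2, -3.21 for Igtp and -5.80 for Iigp1. At 8 against 6 weeks they were -1.20 for Gbp2, -1.01 for Gbp3, -1.15 for Gbp5, -1.41 for Gbp6, -0.52 for Gbp7, -0.41 for Gbp9, -0.64 for Irgm1, -1.04 for Irgm2, -1.004 for Igtp and -1.98 for Iigp1. At 10 against 8 weeks they were -0.96 for Gbp2, -0.51 for Gbp3, -0.84 for Gbp5, -0.92 for Gbp6, -0.30 for Gbp7, -0.056 for Gbp9, -0.22 for Irgm1, -0.47 for Irgm2, -0.49 for Igtp and -1.13 for Iigp1, and Gbp9 turned to -0.46 at 6 against 4 and -0.16 at 12 against 10 weeks. With the covariate 0 members were higher by either rule at 12 against 4 weeks, 0 were higher by the fold rule at 8 against 6 weeks and 0 changed over the 5 ages. By the fold rule in the lower direction it called 10 members at 12 against 4 weeks, 8 at 6 against 4, 7 at 8 against 6, 2 at 10 against 8 and 0 at 12 against 10 weeks, with 0 by adjusted p in each, and only 2 of all genes were called by adjusted p at 12 against 4 weeks. Over all genes the fold rule called 1191, 706, 587, 583 and 416 in these comparisons, in the same order. Of these, 33.5%, 28.8%, 37.0%, 50.8% and 72.1% were higher.

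With the replicate number as a block, 3 members were called by adjusted p at 12 against 4 weeks and 3 over the 5 ages, against 8, and 0 by the fold rule at 8 against 6 weeks, and Gbp9 turned to -0.025 at 6 against 4 and -0.027 at 12 against 10 weeks. Over all genes the block fit called 8328 by adjusted p at 12 against 4 weeks, against 8858 in the main fit. By the fold rule at 8 against 6 weeks it called 1389, 85.0% of them higher. Its share over the 5 ages is not reported here. Correlations between the deviations of mice with the same number ran from -0.504 to 0.509 over the comparisons, with no common sign. For mice 1, 2 and 3 they were 0.509, -0.118 and 0.489 at 8 against 6 weeks. At 6 against 4 weeks they were -0.504, -0.0499 and -0.463. The labels give no tie between mice with the same number. The fold rule at 8 against 6 weeks called 0 members with the compared ages alone and 6 in the exact test. Over all genes these fits called 1140 (82.6% higher) and 1729 (86.1% higher). At 10 against 8 weeks the fold rule called 1 member with DESeq2 size factors, library totals, no filter, the exact test and DESeq2. In these fits it called from 2313 to 2568 of all genes, and from 79.6% to 91.15% of them were higher. Near 0, Gbp3 turned to 0.000335 in the exact test and 0.00304 in DESeq2 at 6 against 4 weeks, and Gbp9 to -0.00178 without the filter at 12 against 10 weeks. The cause of these changes was not tested.

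With each mouse left out, the count at 12 against 4 weeks ran from 1 to 9 by adjusted p and from 4 to 10 by the fold rule, that at 8 against 6 weeks from 0 to 10, that at 10 against 8 weeks from 0 to 1 and that over the 5 ages from 3 to 9. The shares of all genes called in these fits are not reported here. At 6 against 4 weeks values ran from -1.46 to 1.04 for Gbp2, -0.96 to 1.02 for Gbp3, -1.31 to 1.06 for Gbp5, -1.58 to 0.82 for Gbp6, -0.72 to 0.47 for Gbp7, -0.56 to 0.56 for Gbp9, -0.86 to 0.34 for Irgm1, -1.02 to 0.71 for Irgm2, -1.26 to 0.57 for Igtp and -2.26 to 0.72 for Iigp1. At 12 against 10 weeks they ran from -0.50 to 0.059 for Gbp2, -0.47 to 0.14 for Gbp5, -0.52 to 0.044 for Gbp6, -0.45 to 0.068 for Gbp7, -0.22 to 0.21 for Gbp9, -0.60 to 0.00342 for Igtp and -0.64 to 0.057 for Iigp1. Library totals without TMM moved the median of all genes at 12 against 4 weeks by 0.25 to 0.20 and that of the members to 2.75, and 78.3% of the genes then called by adjusted p were higher, against 49.2%. At 10 against 8 weeks that share was 78.9%, against 50.1%. Ranking by Spearman's rho kept 1 of the 10 genes most like the members. With 3 mice an age, an exact permutation test of a single value cannot go below p = 0.1.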

Other observations

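The members made up a changing share against other transcripts of the same islets. Divided by the sum of 22 leukocyte markers, their summed CPM gave a ratio between 1.64 and 2.74 in the 4-week mice, between 1.08 and 1.78 in the 6-week mice and between 0.571 and 1.64 in the 8-week mice. The ratio lay between 0.979 and 1.16 in the 10-week mice and between 0.382 and 0.957 in the 12-week mice, so that all 4-week mice were above all 12-week mice. Divided by the sum of the 18 antiviral genes these 2 ages stood the other way round, between 0.663 and 3.05 in the 4-week mice and between 3.43 and 5.10 in the 12-week mice. Both sums lean on their most abundant genes. At 4 and 12 weeks the antiviral gene Eif2ak2 averaged 38.4 and 44.3 CPM, and the leukocyte marker Lyz2 39.8 and 812 CPM. These ratios were looked at after the levels had been seen and carry no test.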
